A study of Homo sapiens with 18 samples.

Results

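The open chromatin regions of human chromosome 17 whose midpoint lies at 20 Mb or beyond were followed in UBR7 knockout and parental HEK293T cells. They were chosen by position, after earlier results of these data had shown lower ATAC and RNA values there in libraries labelled UBR7KO. The broad peaks of 4 ATAC libraries were merged wherever they shared at least 1 bp, which gave 59275 regions, and 1468 of them met the rule. The RNA table held 14177 genes, of which 643 start on the same stretch, and 621 of these passed the filter on low values. HEK293T is an established, aneuploid human embryonic kidney line. All cells were grown in the same medium, and no drug was given.

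UBR7KO stands for cells in which CRISPR-Cas9 was used to knock out UBR7, and the other cells are the unedited parental line. ATAC-seq was made from 2 UBR7KO and 2 parental libraries, each from 5000 cells. RNA-seq was made from 2 libraries of line UBR7KO1, 1 library labelled UBR7KO2 and 3 parental libraries. Date codes in the labels pair UBR7KO1 library 1 with parental 1 and UBR7KO1 library 2 with parental 2. The library labelled UBR7KO2, called KO2-1 beside shorter lists of values, and parental 3 carry no date and are called the undated pair. A code of the UBR7KO2 RNA library also stands in the names of both UBR7KO ATAC libraries, so the ATAC cells may be of line UBR7KO2, which the labels do not state. Each knockout line may be 1 clone. A further library carries GFP-tagged UBR7, read by ChIP-seq for GFP with 1 input. Separate cultures are not stated, so the spread between libraries, and any p-value from it, may be technical.

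UBR7 carries a UBR box and a PHD finger, is known as a histone H2B ubiquitin ligase, and is named in the study's title as a chaperone of histone H3. ATAC-seq uses a transposase that cuts where DNA is not wrapped in nucleosomes, so its peaks fall on promoters, enhancers and insulators. The long arm of chromosome 17 is rich in genes. It holds the HOXB cluster of homeobox genes, the type I keratins, proteasome and ribosomal protein genes, the Polycomb genes SUZ12 and CBX2, and TOP2A, ERBB2, NF1 and BRCA1.

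Promoters of 4 genes are shown because each stands for 1 pattern among the regions. ZNF830 and PITPNC1 have a region at the start that was called in both parental libraries and in neither UBR7KO library. At PITPNC1 a further region at the start was called in UBR7KO 2 and parental 2. SPAG9 has a start region called in all 4 libraries and overlapped by a GFP-UBR7 peak. TOP2A has a start region called in both UBR7KO libraries and in parental library 2, and lower RNA in the undated pair. Each sequence runs 5′ to 3′ from 250 bases before to 50 after the start in RefSeq (GRCh38.p14), at chr17:34961290-34961589 (plus strand) for ZNF830, chr17:67377031-67377330 (plus) for PITPNC1, chr17:51120819-51121118 (minus) for SPAG9 and chr17:40417847-40418146 (minus) for TOP2A. Capitals mark matches on either strand to the GC box GGGCGG, the CCAAT box, the E-box CACGTG, the AP-1 motif TGANTCA or the ETS motif CCGGAAG.
ZNF830: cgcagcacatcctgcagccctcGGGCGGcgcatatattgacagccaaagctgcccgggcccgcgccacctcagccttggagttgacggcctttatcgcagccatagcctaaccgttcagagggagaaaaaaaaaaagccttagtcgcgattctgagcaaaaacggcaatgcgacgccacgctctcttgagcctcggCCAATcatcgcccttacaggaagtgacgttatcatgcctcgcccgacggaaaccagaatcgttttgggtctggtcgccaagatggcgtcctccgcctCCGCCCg
PITPNC1: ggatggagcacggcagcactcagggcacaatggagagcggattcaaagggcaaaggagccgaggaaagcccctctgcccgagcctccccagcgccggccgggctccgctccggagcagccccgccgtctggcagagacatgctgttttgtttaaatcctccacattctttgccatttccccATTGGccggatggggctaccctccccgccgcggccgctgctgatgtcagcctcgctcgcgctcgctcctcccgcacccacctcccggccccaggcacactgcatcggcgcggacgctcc
SPAG9: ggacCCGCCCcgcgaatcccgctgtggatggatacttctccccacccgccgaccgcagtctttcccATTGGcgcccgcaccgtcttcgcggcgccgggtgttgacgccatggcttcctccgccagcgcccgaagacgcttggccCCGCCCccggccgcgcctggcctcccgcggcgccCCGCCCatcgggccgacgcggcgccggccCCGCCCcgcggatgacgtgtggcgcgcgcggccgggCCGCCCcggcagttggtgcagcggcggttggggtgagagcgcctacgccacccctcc
TOP2A: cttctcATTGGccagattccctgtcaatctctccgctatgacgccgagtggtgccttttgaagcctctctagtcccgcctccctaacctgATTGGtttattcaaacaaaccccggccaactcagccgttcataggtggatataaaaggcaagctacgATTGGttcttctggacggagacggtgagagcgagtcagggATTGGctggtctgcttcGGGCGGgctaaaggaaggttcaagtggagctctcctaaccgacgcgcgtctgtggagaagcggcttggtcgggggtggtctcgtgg

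The 4 promoters held GC and CCAAT boxes and no match to the other 3 motifs. GGGCGG had 2 matches in ZNF830, 0 in PITPNC1, 5 in SPAG9 and 1 in TOP2A. CCAAT had 1 match in each of ZNF830, PITPNC1 and SPAG9 and 4 in TOP2A. No 2 matches overlapped. Of all 35116 RefSeq promoters of this length, 45.0% held the GC box, 34.6% the CCAAT box, 7.26% the E-box, 7.71% the AP-1 motif and 10.3% the ETS motif. Of the 539 promoters of genes on the stretch, 70.5% held the GC box, 35.2% the CCAAT box, 10.9% the E-box, 6.68% the AP-1 motif and 17.6% the ETS motif. G and C made up 58.7% of the ZNF830, 67.3% of the PITPNC1, 77.7% of the SPAG9 and 55.7% of the TOP2A window. By symbol, 385 of the 643 genes matched a promoter, and these 539 promoters had a median of 66.3% G and C and 27 CpG, against 58.7% and 14 over all promoters. The genes matched are those with a row in the RNA table, while all promoters include genes that these cells may not use.

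The 1468 regions lay closer to genes than the other 57807. Gene starts within 1 kb were present for 510 of them (34.7%), against 20.9% of the other regions. Another 200 (13.6%) lay over 1 and up to 10 kb from the nearest start, and 758 (51.6%, against 71.5%) lay more than 10 kb away, here called distal. Their median width was 378.5 bp, against 286 bp elsewhere, and widths ran from 93 to 2198 bp. All positions of regions are in the GRCh37-type coordinates of the deposited files, counted from 1. The 3 regions just inside the 20 Mb mark were chr17:20058986-20059943 at SPECC1, called in all 4 libraries, chr17:20130139-20130344, called in UBR7KO 2 and parental 2, and chr17:20223783-20223941, called in parental 2. The 3 just outside were chr17:19912057-19913713 at SPECC1, called in all 4 libraries, chr17:19996679-19996827, called in UBR7KO 2, and chr17:19998715-19998923, called in parental 2.

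The second library of each group had far more peaks than the first. The authors' lists held 15310 and 45920 peaks in the UBR7KO libraries 1 and 2, and 10507 and 38529 in the parental libraries 1 and 2. Reads per library are not in the lists, so the depth is unknown, and the share of a library's regions is used below in place of a plain count. Of the 1468 regions, 505 and 1007 were called in the UBR7KO libraries, against 381 and 1192 in the parental libraries. They made up 3.31% and 2.22% of all regions called in the UBR7KO libraries, against 3.63% and 3.12% in the parental libraries. UBR7KO 2 was the lowest of the 4, and the groups overlapped, since UBR7KO 1 lay above parental 2. The mean log2 ratio of these regions to the others was lower in UBR7KO by 0.32 (log2 difference -0.32), with -0.14 between the first libraries and -0.51 between the second. With 2 libraries a group an exact permutation test cannot go below p = 0.333, and these values helped to choose the stretch, so none was run.

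The 424 regions of chromosome 17 below 20 Mb had a log2 difference of -0.01, with 0.19 between the first libraries and -0.21 between the second. Over 23 other chromosomes or parts it ran between -0.18 and 0.31, and the stretch from 20 Mb, at -0.32, lay outside that range. Between the second libraries the range elsewhere was -0.31 to 0.36 and the stretch had -0.51. Between the first libraries the range was -0.17 to 0.26, and the stretch, at -0.14, lay inside it. Taken over the UBR7KO libraries without UBR7KO 2 the log2 difference was -0.03, and without UBR7KO 1 it was -0.62.

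From all listed peaks, distal regions carried most of the difference, and regions at gene starts little of it. Of the 758 distal regions, 115 and 399 were called in the UBR7KO libraries, against 76 and 575 in the parental libraries. They made up 2.59% and 1.34% of the distal regions called in the UBR7KO libraries, against 3.26% and 2.43% in the parental libraries, a log2 difference of -0.61. UBR7KO 2 was again the lowest, and UBR7KO 1 lay between the parental libraries. Of the 510 regions at gene starts, 357 and 481 were called in the UBR7KO libraries, against 289 and 477 in the parental libraries. Their share was 3.55% and 3.94% in the UBR7KO libraries, against 3.72% and 4.07% in the parental libraries, and the log2 difference was -0.06. The 200 regions between gave -0.19. The number of peaks differed between libraries, so each list was also reduced to the same number of its peaks with the highest −log10 q. Distal shares were then 2.62% and 0.917% in UBR7KO, against 3.26% and 2.32% in parental cells. Start shares were then 3.52% and 3.29% in UBR7KO, against 3.72% and 3.96% in parental cells. Both UBR7KO libraries were thus below both parental libraries at gene starts in that setting. From all listed peaks most start regions were called in the second libraries (94.3% in UBR7KO 2 and 93.5% in parental 2), which leaves little room for a difference. From all listed peaks, distal regions of the stretch had -0.34 between the first libraries and -0.88 between the second. Distal regions of chromosome 17 below 20 Mb had 0.25 and -0.47, and start regions there had 0.27 and 0.05. Between the second libraries, distal regions were thus lower than start regions on both sides of the mark.

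**Figure D1:**
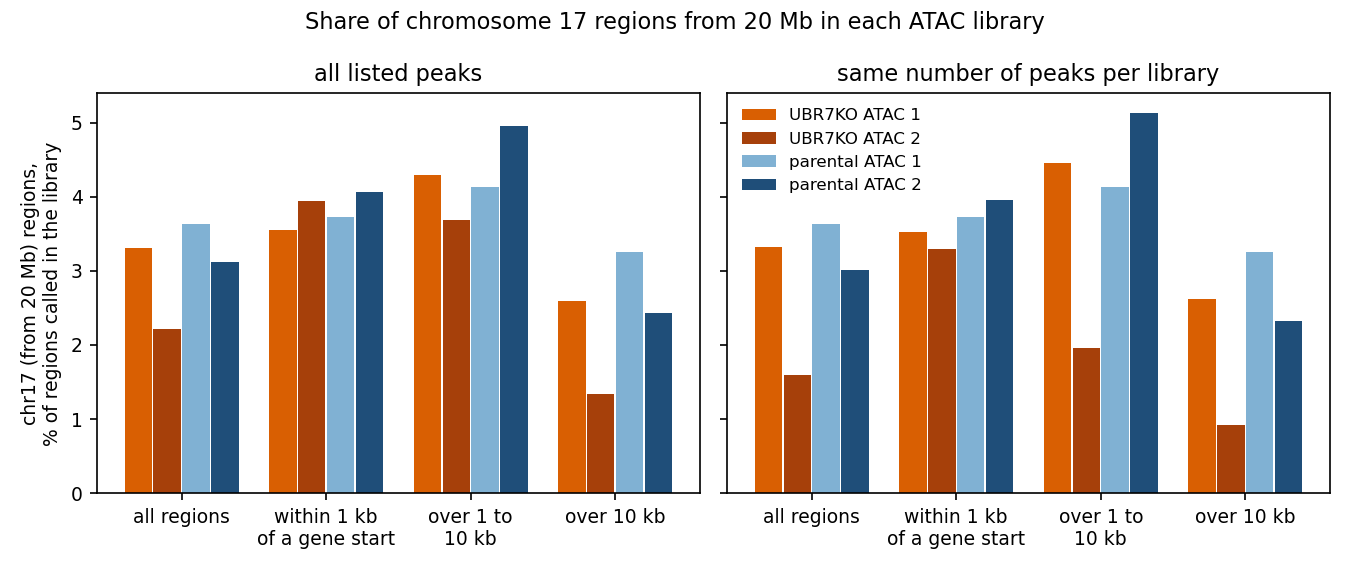
The share of regions called in each ATAC library (y axis, percent) that lie on chromosome 17 from 20 Mb, for all regions and by distance to the nearest gene start (x axis), 1 bar per library, from all listed peaks (left) and from the same number of peaks per library (right). On the left, at over 10 kb from a start UBR7KO 2 has 1.34% and parental 2 has 2.43%, while within 1 kb the 4 libraries sit between 3.55% and 4.07%. On the right, within 1 kb the UBR7KO libraries have 3.52% and 3.29% and the parental libraries 3.72% and 3.96%.

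The calls of the second libraries were also counted region by region. They are the same calls that gave the shares above and helped to choose the stretch, so these counts are no further evidence. UBR7KO 2 without parental 2 had 244 of the 1468 regions (16.6%), where the background over all 59275 regions was 33.5%. Parental 2 without UBR7KO 2 had 429 (29.2%), against a background of 21.3%. Both second libraries had 763 (51.98%, background 43.2%). Of the 758 distal regions UBR7KO 2 alone of the second libraries had 156 (20.6%, against 41.7% of distal regions elsewhere), and parental 2 alone had 332 (43.8%, against 26.4% elsewhere). In the first libraries 202 regions (13.8%, background 10.8%) were called in UBR7KO 1 and not in parental 1, and 78 (5.31%, background 2.76%) in parental 1 and not in UBR7KO 1. Both directions were above the background over all regions there, which is not matched for distance to a gene start. At gene starts 105 (20.6%, against 21.7% of start regions elsewhere) were called in UBR7KO 1 and not in parental 1. In parental 1 and not in UBR7KO 1 it was 37 (7.3%, against 3.3%). For distal regions these counts were 74 (9.76%, against 7.53%) and 35 (4.62%, against 2.51%).

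Calling a region in both libraries of one group and neither of the other left few regions. Of the 1468, 13 (0.886%) were called in both UBR7KO libraries and in no parental library, close to the background of 0.992%. In both parental libraries and in no UBR7KO library 10 (0.681%) were called, where the background was 0.165%. All 4 libraries called 300 (20.4%, background 14.8%), and 251 of these lay at gene starts, which are more frequent on the stretch. Of its 510 start regions that was 49.2%, below the 58.35% of start regions elsewhere. Of its distal regions all 4 libraries called 39 (5.1%, against 2.9% of distal regions elsewhere). Since the stretch was chosen from this contrast, nothing is read from these counts.

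The 13 regions without a parental peak lay at 5 gene starts, 7 distal sites and 1 site between. In the HOXB cluster, chr17:46667484-46667949 lay at an annotated start of HOXB-AS3, an antisense RNA of that cluster, and had −log10 q of 1.70 and 3.28 in the UBR7KO libraries. These −log10 q values are the authors' own, and most are low. At an annotated start of VAT1, a vesicle membrane protein, chr17:41174019-41174485 had 0.65 and 2.18 in the UBR7KO libraries. At NGFR, the low-affinity receptor of nerve growth factor, chr17:47572394-47572748 had 1.28 and 1.91 in the UBR7KO libraries. The others were at TBX2 and SLC16A5. The distal sites with the highest values in UBR7KO 2 were chr17:38115311-38115572 (5.78 there), 21449 bp from PSMD3, chr17:73422297-73422617 (2.88), 14623 bp from KIAA0195, and chr17:77702430-77703110 (2.13), 48821 bp from the Polycomb gene CBX2.

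The 10 regions without a UBR7KO peak lay at 4 gene starts and 6 distal sites. At RPL23, a protein of the large ribosomal subunit, chr17:37009736-37010299 had −log10 q of 0.71 and 4.14 in the parental libraries. At ZNF830, a zinc finger protein, chr17:33288090-33288651 had 1.00 and 2.76 in the parental libraries, and the start shown above falls inside it. At PITPNC1, a phosphatidylinositol transfer protein, chr17:65374013-65375031 had 1.70 and 1.75 in the parental libraries and began 438 bp from the start. The fourth was at SRCIN1. The distal sites with the highest values in parental 2 were chr17:55952716-55952975 (4.85 there), 25282 bp from the start of MRPS23, chr17:42173153-42173499 (2.26), 25050 bp from G6PC3, and chr17:26242728-26242974 (2.21), 20950 bp from LYRM9.

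Regions called in all 4 libraries had like −log10 q here and elsewhere. The median was 1.25 in UBR7KO 1 and 2.00 in UBR7KO 2, against 1.14 and 1.46 in the parental libraries. For the 8494 such regions elsewhere it was 1.25 and 2.15 in UBR7KO, against 1.07 and 1.48 in the parental libraries. The highest values of UBR7KO 2 were 53.71 at the distal site chr17:48703421-48703878, 63951 bp from CACNA1G-AS1, then 16.34 at CNP (chr17:40118094-40119037), an enzyme of myelin-forming cells, and 12.23 at SPAG9 (chr17:49197483-49198621), a scaffold of JNK signalling. The distal site had 0.91 in UBR7KO 1, 0.33 in parental 1 and 0.90 in parental 2, so only 1 of the 4 libraries was high there.

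Along the chromosome the difference between the second libraries was negative in every 10 Mb bin from 20 Mb on. Its log2 values were -0.77, -0.62, -0.48, -0.68, -0.56, -0.27 and -0.49 in bins from 20 Mb to the end. Below the mark it was -0.14 and -0.33. The first libraries gave -0.27, -0.08, -0.08, -0.29, -0.18, 0.03 and -0.84 over the same bins from 20 Mb, the last from 13 regions in UBR7KO 1 and 16 in parental 1. Below the mark the first libraries gave 0.35 and -0.05. The lowest bin of the second libraries was the first beyond the mark, at 20 to 30 Mb, and the values did not run evenly with distance.

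**Figure D2:**
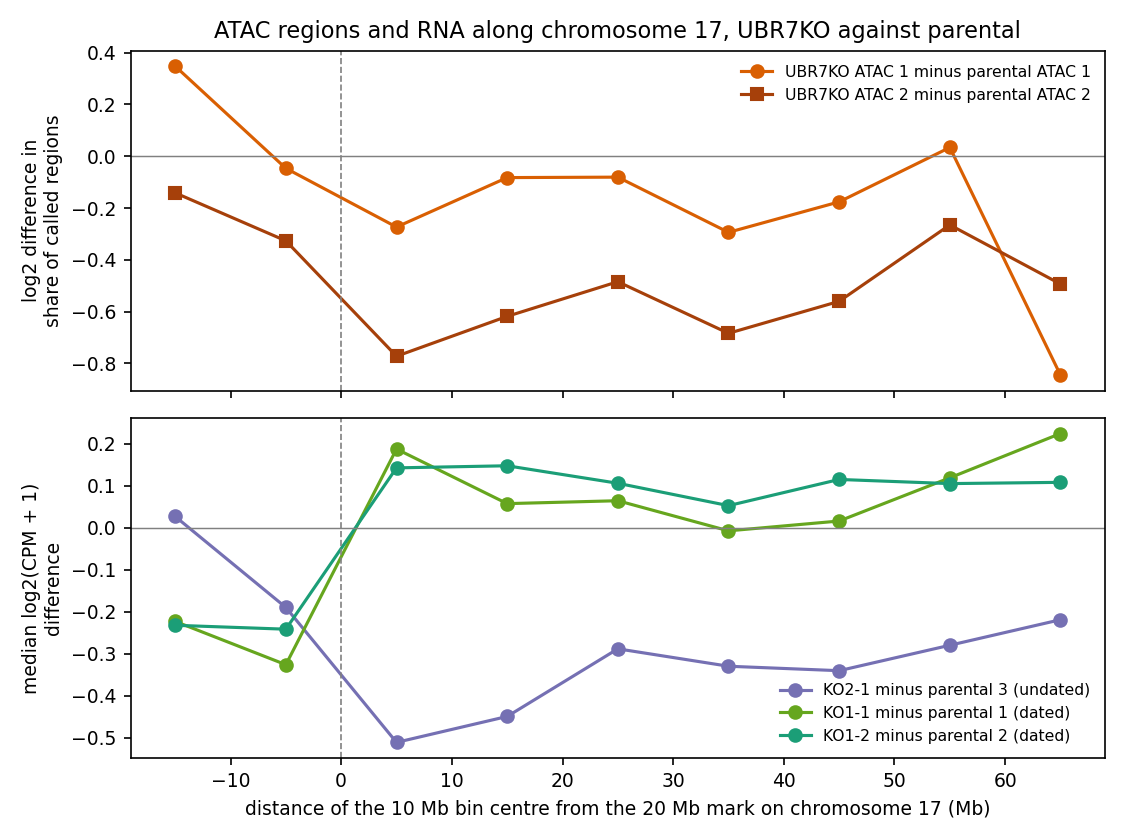
Log2 difference between UBR7KO and parental libraries in the share of called ATAC regions (top) and median log2(CPM + 1) difference of genes (bottom) by 10 Mb bin, against the distance of the bin's centre from the 20 Mb mark of chromosome 17 (x axis, Mb; dashed line at the mark). The second ATAC libraries lie below 0 in all bins, and the RNA of the undated pair lies at -0.51 in the first bin beyond the mark while both dated pairs lie above 0 there.

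The authors' own sets of regions shared by both libraries of a group gave the same order. They come from the same ATAC libraries that helped to choose the stretch, so they are no independent evidence. Their deposited UBR7KO set held 14517 regions, 470 of them on the stretch (3.24%), and the parental set held 9933 regions, 370 of them there (3.73%). The regions there covered 181.8 kb in the UBR7KO set, beside 6426 kb elsewhere, and 144.2 kb in the parental set, beside 3942 kb elsewhere. In the authors' deposited table of gene starts, 488 starts lay on the stretch and 279 of them (57.2%) were in cluster 4, against 46.3% of starts elsewhere. What sets the 4 clusters apart is not given in the sources used here.

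GFP-tagged UBR7 was found on the stretch more often than its share of regions. Of 5895 GFP-UBR7 peaks, 391 (6.63%) lay there. A peak overlapped 266 of the 1468 regions (18.1%), against 6.66% of the other regions. At gene starts the share was 37.1% on the stretch and 25.1% elsewhere, over 1 to 10 kb it was 13% there and 5.07% elsewhere, and at distal regions 6.73% there and 1.43% elsewhere. The stretch had the higher share in each class. This ChIP is independent of the knockout contrast, but it is 1 library, so the difference has no replicate check. Of the 300 regions called in all 4 ATAC libraries, 115 (38.3%) had a GFP-UBR7 peak, CNP and SPAG9 among them, against 26.7% of such regions elsewhere. Of the 13 regions called in the UBR7KO libraries alone 2 (15.4%) had a peak, against 6.61% of such regions elsewhere. Of the 10 called in the parental libraries alone 1 (10%) had one, against 1.14% elsewhere. No named region of those sets was among them.

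RNA values are CPM, read counts scaled by the authors to one library total, and differences are of log2(CPM + 1), which understates the change of genes with low CPM. Library totals recovered from the table were 26395544 and 25487348 reads in UBR7KO1 and 29811908 in the library labelled UBR7KO2, against 27418953, 22153291 and 29141652 in the parental libraries. UBR7 itself stood at 27.0 and 26.3 CPM in UBR7KO1 and 64.5 in the library labelled UBR7KO2, against 55.0, 62.2 and 62.2 in the parental libraries. It was lower in both UBR7KO1 libraries, and the library labelled UBR7KO2 was the highest of the 6. A CRISPR edit need not lower the RNA, and the reads over the edit were not analysed here. Of the HEK293T markers VIM, NEFL and NEFM, all 3 were detected in all 6 libraries. COL1A1, COL3A1 and LUM stayed at or below 12.6 CPM, and the 7 other markers of fibroblast, blood, skin and liver cells have no row in the table analysed.

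In the undated pair most genes of the stretch had less RNA in the library labelled UBR7KO2 than in parental 3. Of 621 genes, 532 (85.7%) were lower and 89 higher, where 52.8% of all 13697 tested genes were lower. Their median log2 difference was -0.35, against -0.01 over the other genes. At least 1.5-fold lower were 111 (17.9%, background 4.64%), and at least 1.5-fold higher were 10 (1.61%, background 3.89%). The summed CPM of the 621 genes was 29120 in the library labelled UBR7KO2 and 38950 in parental 3, a ratio of 0.748. This pair was part of how the stretch was chosen and holds 1 library a side, so the values are a description with no test. In it the knockout, the line and the library cannot be told apart, nor can fewer cells with the RNA and less RNA per cell.

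Set beside other chromosomes, the stretch was the lowest in that pair, and the 2 dated pairs went another way. The medians of the other chromosomes or parts ran from -0.09 to 0.16 in the undated pair, and the 226 genes of chromosome 17 below 20 Mb had 0.01 as a whole. The 58 of them at 15 to 20 Mb, next to the mark, had -0.26, as low as the genes at 75 to 80 Mb (-0.26). In the dated pairs the 621 genes had medians of 0.08 and 0.11, against -0.01 and 0.07 over the other genes. In dated pair 1, 252 of them (40.6%) were lower, with a background of 50.3%, and in dated pair 2, 177 (28.5%), with a background of 37.5%. At least 1.5-fold higher were 36 (5.80%, background 3.19%) in dated pair 1 and 17 (2.74%, background 3.10%) in dated pair 2. At least 1.5-fold lower were 22 (3.54%, background 5.16%) and 5 (0.805%, background 1.38%). The genes below 20 Mb had medians of -0.26 and -0.23 in the dated pairs, the lowest of the chromosomes or parts in both, so the genes from 20 Mb on stood above those below it by 0.34 and 0.35 in the dated pairs. In the undated pair they stood below them, with a difference of -0.36.

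**Figure D3:**
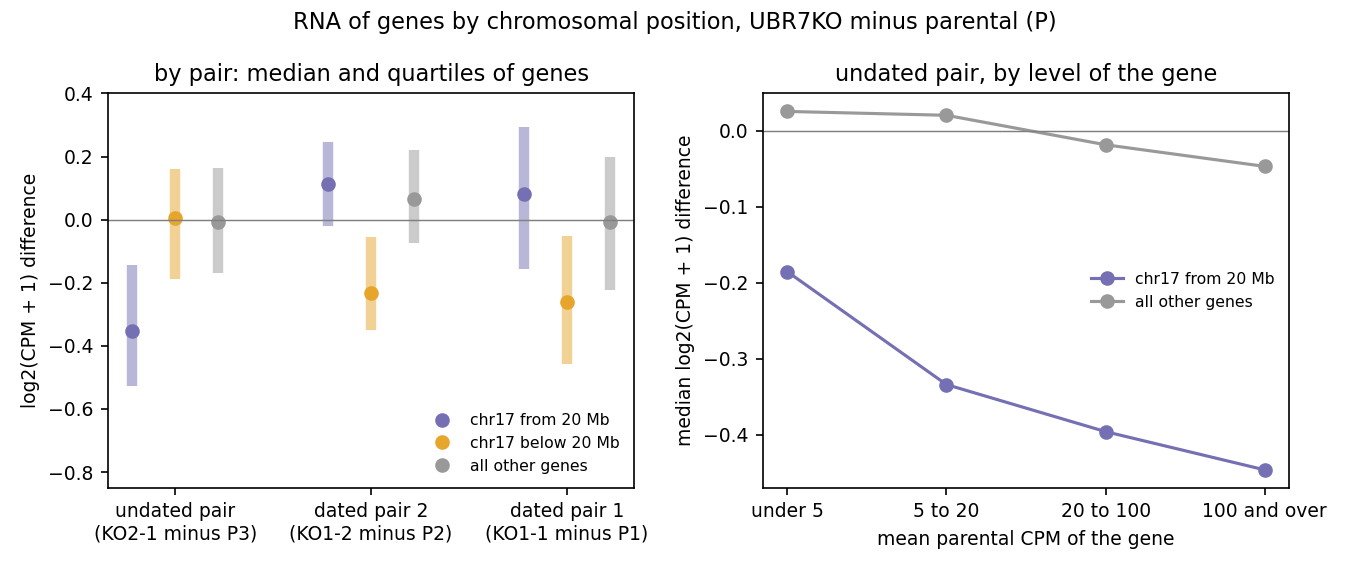
Left, the median (point) and quartiles (ends of the bar) of the log2(CPM + 1) differences of genes on chromosome 17 from 20 Mb, on chromosome 17 below 20 Mb and of all other genes, which include those below 20 Mb, in the undated pair and the 2 dated pairs (P, parental). Right, medians in the undated pair by mean parental CPM. Genes from 20 Mb sit at -0.35 in the undated pair and at 0.08 and 0.11 in the dated pairs, and in the undated pair their median goes from -0.19 under 5 CPM to -0.45 at 100 CPM and over.

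The lower RNA of the undated pair covered the whole stretch. Medians by 10 Mb bin were -0.51, -0.45, -0.29, -0.33, -0.34, -0.28 and -0.22 from 20 Mb to the end, and between 76.4% and 92.7% of the genes of a bin were lower. Below the mark they were 0.03 for 0 to 10 Mb and -0.19 for 10 to 20 Mb. By mean parental CPM the medians were -0.19 for 141 genes under 5 CPM, -0.33 for 146 at 5 to 20, -0.40 for 241 at 20 to 100 and -0.45 for 93 at 100 or more. Low CPM values are drawn towards 0 by the pseudocount of 1. Among the 93 genes, 97.8% were lower, against 60.0% of other genes at that level.

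Genes were lower in that pair whether or not an ATAC region was called at their start. The 255 genes with a start region called in all 4 libraries had a median of -0.35, and 232 of them (91.0%) were lower, against 52.8% of other genes in that class. The 193 called in both second libraries but not in all 4 had -0.40. The 17 with a start region in parental 2 and not in UBR7KO 2 had -0.41, and the 25 with one in UBR7KO 2 and not in parental 2 had -0.22. Other genes had -0.09 and 0.06 in these classes, so the order of the classes was the same outside the stretch. The 131 genes with no start region in either second library had -0.23, and 77.9% of them were lower, against 50.5% of other genes in that class. Genes in the last class had a median of 5.21 CPM in parental cells, against 36.7 CPM for the first, so level and ATAC class go together here.

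Gene groups of the stretch are given beside its own share in the undated pair, where 85.7% of its genes were lower and 17.9% at least 1.5-fold lower, so counts near those shares say nothing of a group. In dated pairs 1 and 2, 369 and 444 of the 621 genes of the stretch were higher, and the same holds for dated counts near those shares. All 6 proteasome genes were lower, with a median of -0.58 and 3 of them at least 1.5-fold lower. PSMD3, a subunit of the regulatory cap, had 125 and 123 CPM in UBR7KO1 and 113 CPM in the library labelled UBR7KO2, against 90.8, 106 and 187 CPM in the parental libraries. Parental 3 was the highest of the 6 for PSMD3. PSME3, an activator of the proteasome, had 139 CPM in the library labelled UBR7KO2 and 211 CPM in parental 3, and PSMD12, also of the cap, had 130 CPM in KO2-1 and 166 CPM in parental 3. Both were highest in parental 3 as well. All 5 ribosomal protein genes were lower, with a median of -0.49. RPL23, whose start region had no UBR7KO peak, had 792 and 710 CPM in UBR7KO1 and 451 CPM in the library labelled UBR7KO2, against 708, 692 and 639 CPM in the parental libraries. The library labelled UBR7KO2 was the lowest of the 6. RPL19 had 463 CPM there and 712 CPM in parental 3, and RPL38 had 500 CPM in KO2-1 and 636 CPM in parental 3. Ribosomal protein genes have near-identical copies elsewhere in the genome, so their counts are uncertain.

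All 19 chromatin genes were lower in the undated pair, with a median of -0.42 and 7 at least 1.5-fold lower, while in the dated pairs 9 and 11 were higher. BPTF, the large subunit of the NURF remodeller, had 187 and 257 CPM in UBR7KO1 and 167 CPM in the library labelled UBR7KO2, against 218, 289 and 224 CPM in the parental libraries. H3F3B, one of the genes for histone H3.3, had 334 and 318 CPM in UBR7KO1 and 278 CPM in the library labelled UBR7KO2, against 360, 327 and 373 CPM in the parental libraries. Each was lowest in the library labelled UBR7KO2, and in all 3 pairs the UBR7KO value was below its parental partner. H3F3B has near-identical copies, so its counts are uncertain. CBX1, the gene for HP1 beta, had 150 CPM in the library labelled UBR7KO2 and 170 CPM in parental 3. NSRP1, a splicing regulator grouped here with the chromatin genes, had 23.6 and 67.6 CPM in UBR7KO1 and 20.8 CPM in the library labelled UBR7KO2, against 24.0, 68.1 and 45.2 CPM in the parental libraries. Its dated partners lay within 0.02 of each other on the log2 scale, and the undated pair differed by -1.08.

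All 15 genes of replication, repair and mitosis were lower in the undated pair, with a median of -0.39 and 1 at least 1.5-fold lower, while 8 and 11 were higher in the dated pairs. TOP2A, the topoisomerase that untangles DNA for mitosis, had 743 and 789 CPM in UBR7KO1 and 353 CPM in the library labelled UBR7KO2, against 533, 692 and 497 CPM in the parental libraries. Both UBR7KO1 libraries were above, and the library labelled UBR7KO2 below, all 3 parental libraries. KPNA2, an importin, had 270 CPM in the library labelled UBR7KO2 and 391 CPM in parental 3. CDC27, a subunit of the anaphase-promoting complex, had 205 CPM in KO2-1 and 286 CPM in parental 3.

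Of 18 signalling genes 17 were lower in the undated pair, with a median of -0.36 and 5 at least 1.5-fold lower. NF1, a negative regulator of RAS, had 103 and 113 CPM in UBR7KO1 and 50.2 CPM in the library labelled UBR7KO2, against 88.7, 91.7 and 88.5 CPM in the parental libraries. The 3 parental values lay close together, the UBR7KO1 values were above them and the library labelled UBR7KO2 was below. PRKAR1A, a regulatory subunit of protein kinase A, had 219 CPM there and 313 CPM in parental 3, and the kinase gene RPS6KB1 had 80.2 CPM in KO2-1 and 93.3 CPM in parental 3. STAT5B was the exception, at 33.9 CPM in KO2-1 and 31.3 CPM in parental 3, and shares near-identical stretches with STAT5A, so its counts are uncertain. Of 11 genes of lipid and carbon metabolism 10 were lower in the undated pair, with a median of -0.27. In each dated pair 10 were higher, beside 369 and 444 of all 621 genes of the stretch. ACLY, which makes cytosolic acetyl-CoA, had 498 and 557 CPM in UBR7KO1 and 409 CPM in the library labelled UBR7KO2, against 302, 456 and 587 CPM in the parental libraries. FASN, the fatty acid synthase, had 362 and 260 CPM in UBR7KO1 and 494 CPM in the library labelled UBR7KO2, against 253, 199 and 524 CPM in the parental libraries. P4HB, a protein disulfide isomerase, had 411 CPM in the library labelled UBR7KO2 and 561 CPM in parental 3. The exception was PYCR1, an enzyme of proline synthesis, at 101 CPM in KO2-1 and 86.2 CPM in parental 3.

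Genes of the HOXB cluster were split. Of the 9 tested 5 were lower and 4 higher in the undated pair, with a median of -0.01. HOXB9 had 180 and 208 CPM in UBR7KO1 and 160 CPM in the library labelled UBR7KO2, against 203, 219 and 137 CPM in the parental libraries, and the groups overlapped. HOXB6 had 25.9 CPM in the library labelled UBR7KO2 and 28.4 CPM in parental 3, and HOXB7 had 22.3 CPM in KO2-1 and 27.0 CPM in parental 3. HOXB-AS3 had 2.45 CPM in KO2-1 and 5.15 CPM in parental 3. Its start in the RNA table had no region called in any ATAC library. The region called in both UBR7KO libraries alone lies at a different annotated start of HOXB-AS3. HOXB-AS3 overlaps HOXB genes on the other strand, and whether counting used the strand is not stated, so these reads cannot be told apart. Of 5 matrix and integrin genes 3 were lower, with a median of -0.04. COL1A1 had 9.58 and 7.38 CPM in UBR7KO1 and 5.97 CPM in the library labelled UBR7KO2, against 10.9, 12.6 and 11.02 CPM in the parental libraries. All 3 UBR7KO libraries were below all 3 parental libraries. The tissue inhibitor TIMP2 had 14.9 CPM in the library labelled UBR7KO2 and 21.3 CPM in parental 3, and the integrin ITGA3 had 5.70 CPM in KO2-1 and 5.87 CPM in parental 3. Of the keratins only KRT10 was tested, at 7.61 CPM in KO2-1 and 12.8 CPM in parental 3, and no gene of the 12 listed chemokines was.

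**Figure D4:**
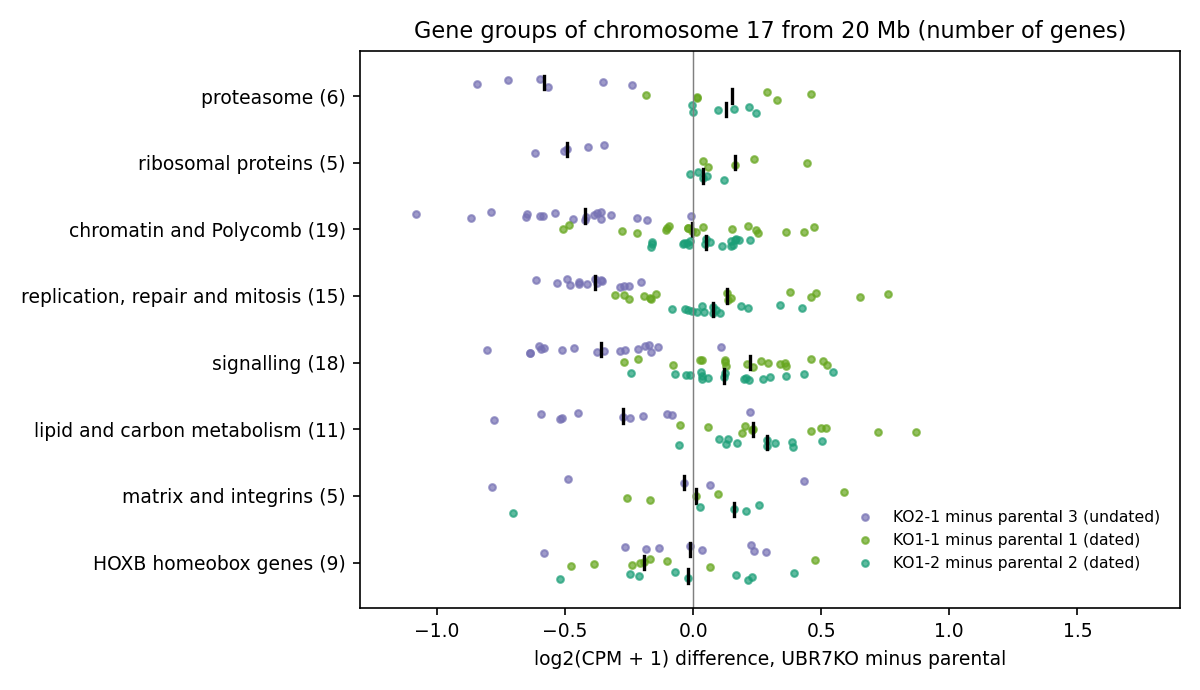
Log2(CPM + 1) differences, UBR7KO minus parental (x axis), of the genes of 8 groups on chromosome 17 from 20 Mb, in the undated pair (top of each row) and the 2 dated pairs, with 1 point per gene and a black line at the median of the group. Proteasome genes have a median of -0.58 in the undated pair and 0.15 and 0.13 in the dated pairs, and HOXB genes have a median of -0.01 in the undated pair.

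Single genes reached larger differences in the undated pair. LGALS3BP, a secreted glycoprotein, had the lowest value, with 10.7 CPM in the library labelled UBR7KO2 and 58.5 CPM in parental 3. In the other libraries it had 32.4 and 12.8 CPM in UBR7KO1, against 25.5 and 10.1 CPM in parental 1 and 2, so it also varied between the dates. KCNJ12, a potassium channel, followed with 6.04 CPM in the library labelled UBR7KO2 and 14.3 CPM in parental 3. NSRP1 came next, then the ubiquitin ligase gene RNF43 with 4.90 CPM in KO2-1 and 11.3 CPM in parental 3, and SDF2 with 6.71 CPM in KO2-1 and 14.4 CPM in parental 3. KCNJ12 has a near-identical copy on the same chromosome, so its counts are uncertain. The highest value was that of NPTX1, a neuronal pentraxin, with 64.8 CPM in the library labelled UBR7KO2 and 23.6 CPM in parental 3, while its other 4 libraries lay between 33.5 and 39.1 CPM. ARSG, an arylsulfatase, had 6.37 CPM in KO2-1 and 2.50 CPM in parental 3. C17orf104 had 12.3 CPM in KO2-1 and 6.73 CPM in parental 3, and HID1 had 8.89 CPM in KO2-1 and 4.80 CPM in parental 3. RASL10B was higher in all 3 UBR7KO libraries, with 28.5 and 23.9 CPM in UBR7KO1 and 21.8 CPM in KO2-1, against 18.0, 10.9 and 10.1 CPM in the parental libraries.

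In the 2 dated pairs limma called 0 of the 621 genes at an adjusted p under 0.05 when the libraries were compared as 2 groups, as it called 0 (0%) of all genes. At an unadjusted p under 0.05 it had 5 higher (0.805%, against 0.847% of all genes) and 0 lower (against 0.745%), and edgeR's quasi-likelihood test and DESeq2 on recovered reads also called 0 of them, where DESeq2 called 0.0292% of all genes higher and 0.146% lower. The dates pair these libraries. Once limma took the date as a block it called 21 higher (3.38%, background 2.23%) and 2 lower (0.322%, background 1.36%). That fit leaves 1 residual degree of freedom a gene, so its SE and p-values lean on the spread of the other genes. RASL10B, a small GTPase, averaged 26.2 ± 3.31 CPM in UBR7KO1 and 14.4 ± 4.99 CPM in parental 1 and 2 (SD, n = 2 each). It rose by 0.85 (SE 0.16, limma with the block, adjusted p = 0.0026, higher in both pairs). VAT1 rose by 0.64 (SE 0.12, limma with the block, adjusted p = 0.0031), with 178 and 119 CPM in UBR7KO1, against 107 and 81.4 CPM in parental 1 and 2. Its start in the RNA table has a region called in both second libraries. The region called in the UBR7KO libraries alone lies at a different annotated start of VAT1. CNP, whose start region was called in all 4 libraries, rose by 0.60 (SE 0.12, limma with the block, adjusted p = 0.0059), with 87.1 and 76.3 CPM in UBR7KO1, against 59.5 and 48.3 CPM in parental 1 and 2. For VAT1 and CNP the undated pair went the other way. VAT1 had 94.6 CPM in KO2-1 and 128 CPM in parental 3, and CNP had 77.5 CPM in KO2-1 and 107 CPM in parental 3.

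Among the other rises were genes of lipid and carbon metabolism, of which 3 of 11 were called. ACLY rose by 0.50 (limma with the block, adjusted p = 0.032), FASN by 0.45 (adjusted p = 0.037) and G6PC3, a sugar phosphatase, by 0.50 (adjusted p = 0.041). No other of the gene groups had a call. The other large rises were ABHD15, a protein with an alpha/beta hydrolase domain, by 0.74, the receptor GPRC5C by 0.69, LIMD2 by 0.65 and C17orf96 by 0.65, each with an adjusted p between 0.014 and 0.034 by limma with the block. The 2 falls were LUC7L3, a splicing factor, and WSB1, a substrate receptor of a ubiquitin ligase. LUC7L3 fell by 0.54 (SE 0.12, limma with the block, adjusted p = 0.014), with 114 and 227 CPM in UBR7KO1, against 179 and 306 CPM in parental 1 and 2. WSB1 fell by 0.49 (SE 0.13, limma with the block, adjusted p = 0.039), with 37.2 and 46.6 CPM in UBR7KO1, against 60.98 and 56.8 CPM in parental 1 and 2. For both genes the difference was negative in the undated pair too, at -0.05 for LUC7L3 and -0.76 for WSB1. These genes were chosen after the values were seen, since no call was made without the block.

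With all 6 libraries, 3 UBR7KO against 3 parental, limma called 0 of the 621 genes and 0 (0%) of all genes. At an unadjusted p under 0.05 it had 1 higher (0.161%, against 0.168% of all genes) and 1 lower (0.161%, against 0.343%). With the pair as a block it had 8 higher (1.29%, against 3.45%) and 16 lower (2.58%, against 2.06%), and also gave 0 calls. edgeR and DESeq2 called 0 of the 621, where DESeq2 called 0.0073% of all genes higher and 0.0438% lower. The median fitted log2 difference of the 621 genes was -0.05, against 0.02 over the other genes, from pairs of opposite direction. A fit added after the data were seen asked which genes moved differently in the undated pair than in the dated pairs, and limma called 98 of the 621 lower there (15.8%, background 3.32%) and 3 higher (0.483%, background 1.71%). The undated pair had helped to choose the stretch, so nothing is read from that share.

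Genes nearest to the named distal regions were read beside them. MRPS23, a mitochondrial ribosomal protein near a region called in the parental libraries alone and another, 37961 bp away, called in the UBR7KO libraries alone, had 44.9 CPM in the library labelled UBR7KO2 and 61.2 CPM in parental 3, and LYRM9 had 1.11 CPM in KO2-1 and 1.75 CPM in parental 3. CBX2 had 76.8 CPM in KO2-1 and 98.8 CPM in parental 3, and KIAA0195 had 24.9 CPM in KO2-1 and 30.6 CPM in parental 3, though the regions near them were called in the UBR7KO libraries alone. ZNF830 and PITPNC1 have a region at the start called in the parental libraries alone. ZNF830 had 16.3 CPM in KO2-1 and 22.3 CPM in parental 3, and PITPNC1 had 12.04 CPM in KO2-1 and 15.5 CPM in parental 3. NGFR, with a start region called in the UBR7KO libraries alone, had 0.738 CPM in KO2-1 and 1.30 CPM in parental 3. All 3 were lower in the library labelled UBR7KO2. SPAG9 had 129 CPM in KO2-1 and 136 CPM in parental 3, a log2 difference of -0.07.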

How the data were processed

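ATAC-seq, RNA-seq and GFP ChIP-seq files of HEK293T cells were used, and the 6 CUT&RUN samples were not analysed here. The submitters' processing notes name Bowtie2 2.3.1, TopHat2 2.1.0, HTSeq 0.6.1, SAMtools 1.3.1, Trimmomatic 0.36, MACS2, bedtools and edgeR, with several genome builds and no role for each. The deposited coordinates exceed the length of several GRCh38 chromosomes. The authors' deposited broad peaks give −log10 q per peak, called in each library alone. The score of the deposited GFP-UBR7 peaks has no stated scale and only ranked them. The score in the authors' intersected sets was not used. The log2 fold changes and p-value columns in the authors' deposited table, from edgeR per the file headers, were not used. The same table gives the deposited CPM, and its values were whole multiples of 1 read within 1e-06 in 100% of cases.

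Genes above 1 CPM in at least 3 libraries were tested (13697) with limma 3.58.1 (R 4.3.3, intensity trend, robust) on log2(CPM + 1), with Benjamini-Hochberg adjustment over all of them. edgeR 4.0.16 and DESeq2 1.42.0 ran on recovered reads. Python 3.11.15 with pandas 2.3.3 did the rest. The scripts were tested on simulated data. The members, gene lists and tests were chosen with earlier results of these data known. Named regions were the 3 of each kind with the highest −log10 q in the second library of the group that has them. Named genes were those nearest to them, the 3 of each list with the highest parental CPM, any list gene called, and the 5 largest differences each way. Same-dated libraries deviated together from their group means (correlations of 0.758, 0.736 and, in the undated pair, 0.633), and the labels' dates give the pairing.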

Additional observations from a re-analysis of the deposited data

Results flagged for a closer look

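The genes starting on chromosome 17 from 20 Mb had a median log2(CPM + 1) difference, relative to the other genes, of -0.34 in the undated pair (library labelled UBR7KO2 minus parental 3), and of 0.09 and 0.05 in the 2 dated pairs (UBR7KO1 minus parental). It is listed because the library labelled UBR7KO2 and the 2 UBR7KO1 libraries went opposite ways, each against its own parental library. UBR7 RNA in the library labelled UBR7KO2 was at the parental level (64.5 CPM). For single genes the difference between the undated and the dated pairs was tested with limma, a fit added after the data were seen. It has 1 residual degree of freedom and takes the single undated pair to vary like the others. It called 98 of the 621 genes lower in the undated pair (15.8%, background 3.32%) and 3 higher (0.483%, background 1.71%). The stretch was chosen with the undated pair in view, so these counts are no independent evidence. Line, date and library cannot be told apart.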

How the results depend on the processing

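The log2 difference in ATAC share of the stretch, -0.32, was -1.22 from peaks with −log10 q of at least 5. Few regions of the first libraries passed that cut. On the stretch lay 13 of 295 in UBR7KO 1 and 32 of 280 in parental 1. In the second libraries it was 102 of 7285 in UBR7KO 2 and 73 of 2709 in parental 2. From all peaks with 1 library left out, the log2 difference ran from -0.62 (without UBR7KO 1) to -0.027 (without UBR7KO 2). A replicate block cannot change this difference of means, so its value of -0.32 with the block is no check. Regions called in both UBR7KO and no parental library numbered 1 at −log10 q of at least 5, in place of 13. Those called in both parental and no UBR7KO library numbered 24 where a peak had to cover 50% of the region, 32 with the same number of peaks per library and 0 at −log10 q of at least 5, in place of 10. With the replicate block, replicate 1 alone gave 202 UBR7KO-only and 78 parental-only regions, and replicate 2 alone gave 244 UBR7KO-only and 429 parental-only regions. The numbers only name the ATAC libraries, whose deviations correlated at -0.21 over regions. Pairs crossed after the data were seen gave 33 UBR7KO-only and 720 parental-only regions (UBR7KO 1 with parental 2), and 651 UBR7KO-only and 25 parental-only regions (UBR7KO 2 with parental 1). The share of regions with a GFP-UBR7 peak, 18.1%, was 16.1% with the peak's midpoint inside the region and 11.6% from the 50% of the peaks that scored highest. The RNA block by date moved calls in the dated pairs to 21 higher and 2 lower, against 0 and 0. The median of the undated pair, -0.35, was -0.39 with a pseudocount of 0.1 and -0.40 above 10 CPM. The other 61 results under alternatives stayed within set limits. Counts were unchanged or within 1.5 times. ATAC share differences kept their direction and lay within 1 SD, taken over the differences of the first and of the second libraries. That limit is wide, and it held -0.54 with the same number of peaks per library and -0.48 where a peak had to cover 50% of the region. Medians of the undated pair lay within a binomial interval around the main median. For single genes, 12 passed the threshold with the block, and 624 other results did not cross it or had no test. Some of these 624 changed sign in the dated pairs when 1 library was left out. Without UBR7KO1 library 1, the log2 change of NSRP1 went from -0.016 to 0.72 and that of RPL19 from 0.088 to -0.42. The cause of each change was not tested. The ATAC read depth is unknown, and the −log10 q of most regions is low, which limits how far a region without a peak can be called closed. Leaving out RNA libraries gave no call among the 621 genes.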
